A study of Homo sapiens with 4 samples.

Results

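The BCL2 family regulators of apoptosis described here are 10 genes chosen by symbol: BAX, BAK1, BCL2, BCL2L1, MCL1, BCL2L11, BID, BAD, BBC3 and PMAIP1. All 10 were found among the 44591 genes listed in every library. The cells, labelled HepG2, an established human liver cancer line, were grown to about 70% confluency and transfected either with siNC, a control siRNA, or with siLINC01186, siRNA against the long noncoding RNA LINC01186, which the study calls SALIS. They then spent 6 h in DMEM lacking serum, followed by 24 h in DMEM with 10% serum, and 2 libraries per group, numbered 1 and 2, were sequenced from poly(A) RNA. The study describes the replicates as biological repeats that received the same siNC and different siRNA oligos against LINC01186, but which library received which oligo is not in the labels. The labels do not say how the cultures were separated, and the p-values measure the spread between these libraries, in which same-group replicates differed by a chi-square per gene of 23.4 in siNC and 27.2 in siLINC01186, far beyond counting error.

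BCL2 family proteins decide whether the outer mitochondrial membrane is opened. BAX and BAK1, the effectors, form pores that let cytochrome c out. BCL2, BCL-XL (the product of BCL2L1) and MCL1, the guardians, hold effectors and their activators in check. The BH3-only proteins, which carry a single BCL2 homology region, sense stress and act on guardians, effectors or both: BIM (BCL2L11), BID, BAD, PUMA (BBC3) and NOXA (PMAIP1). Hepatocytes are known to depend on MCL1 and BCL-XL for survival. Much of the control over these proteins lies in phosphorylation, cleavage, localization and turnover, which RNA sequencing does not measure.

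No member passed the test for a difference between the groups. BAX, BCL2 and BCL2L1 were higher in the siLINC01186 library of both replicate numbers and BAK1 was lower in both, by log2 differences of at most 0.54 in size, although with deposited TPM BAX and BCL2L1 were lower in replicate 1. The other 6 members were higher in siLINC01186 replicate 1 and lower in siLINC01186 replicate 2 than the same-numbered siNC library, although with deposited TPM MCL1, BCL2L11 and BAD were lower in both. Opposite signs in the 2 pairs were common, met by 10976 of all 23942 genes tested, so they do not set these members apart. MCL1 was the most abundant member transcript per length, and BCL2 the least.

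Total counts ranged from 14968958 to 17297245 per library. LINC01186, the gene targeted, had 15 and 14 counts in siNC and 12 and 14 counts in the libraries labelled siLINC01186. Its log2 fold change was -0.12 (SE, the standard error, 0.53, unadjusted p = 0.831, edgeR), so no knockdown was detected. The 95% interval, -1.31 to 1.08, leaves out values below -1.31, but with so few counts it does not leave out a smaller fall. The study reports knockdown by qPCR in HepG2 cells, and does not say whether these cultures were measured. The labelled cell type was checked against 7 hepatocyte genes that HepG2 cells are known to express. Their summed level was 4.90 and 15.3 CPM (counts per 1000000, scaled by edgeR's TMM method) in siNC replicates 1 and 2, and 6.16 and 14.5 CPM in siLINC01186 replicates 1 and 2. ALB, encoding albumin, had 0 counts in both replicate 1 libraries and 15 and 14 counts in the replicate 2 libraries, and 4 of the 7 genes were at 0 in each replicate 1 library. HNF4A, a liver transcription factor, had 79 to 188 counts per library, and none of the other 6 exceeded 27 counts in any. The markers thus went against the label. The study's supplement reports a DNA profile (STR typing) of its HepG2 line as a full match to a HepG2 reference. It does not say whether these cultures were typed. The libraries are called by their labels below. Summed levels of 3 fibroblast genes were 34.4 to 63.9 CPM, of 3 leukocyte genes 2.69 to 5.88 CPM and of 2 endothelial genes 0.957 to 2.66 CPM. In bulk libraries, fewer cells of a type and less RNA per cell cannot be told apart.

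The oligos against LINC01186 are shown because a 7-base match between bases 2 to 8 of an siRNA strand and a 3′UTR is a known route by which an siRNA can lower other transcripts. The DNA letters are as listed by the study, 5′ to 3′, with bases 2 to 8 in capitals, followed by the reverse complement of each.
siSALIS_01: aGGGCTCTattgggcaaaaa
siSALIS_01 reverse complement: tTTTTGCCcaatagagccct
siSALIS_02: cTAAGTGActcactgcatc
siSALIS_02 reverse complement: gATGCAGTgagtcacttag

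Because the sources do not say which strand was loaded, sites for both strands were looked up on the transcribed strand of the longest annotated 3′UTR of 19128 genes (GENCODE 29, GRCh38). The site of siSALIS_01 as printed, AGAGCCC, lay in 2 of 10 members (BAK1 and BCL2) and in 2300 of the 19128 genes, and that of its reverse complement, GGCAAAA, in 3 of 10 (BCL2, BCL2L11 and BID) and 13.2%. For siSALIS_02, TCACTTA lay in 3 of 10 members (BCL2, MCL1 and BID) and in 11.3% of all genes, and ACTGCAT in 4 of 10 (BAK1, BCL2L11, BID and PMAIP1) and 12.5%. BAX, BCL2L1, BAD and BBC3, whose 3′UTRs are 379 to 1497 bases long, held none of the 4 sites. The 3′UTRs of the 6 members with a site are 1442 to 5279 bases long. The 29-base windows below, with the site in capitals, belong to the guardian MCL1, the effector BAK1 and the BH3-only gene PMAIP1, whose values are described further on. They lie on the minus strand at chr1:150575446-150575474 for MCL1 and chr6:33574054-33574082 for BAK1, and on the plus strand at chr18:59902822-59902850 for PMAIP1 (GRCh38). Each window holds a siSALIS_02 site, and which library received that oligo is not in the labels. The members shown were lower in siLINC01186 replicate 2 than in siNC replicate 2, PMAIP1 within counting error. BCL2, which also holds a siSALIS_02 site and is not shown, was higher there.
MCL1: taggagtatgcTCACTTAaatttacagaa
BAK1: catgctgcatcACTGCATtgcccggtgga
PMAIP1: tttgaagaaagACTGCATtgtaattgaga

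Of the 6 members with a siSALIS_02 site on either strand, 1 was lower in siLINC01186 replicate 1 and 5 in siLINC01186 replicate 2 than in the same-numbered siNC library. Of the 4 members without one, 0 and 2 were lower. These counts are from TMM-scaled CPM, and with deposited TPM 5 more members (BAX, BCL2L1, MCL1, BCL2L11 and BAD) were lower in replicate 1. For siSALIS_01 the numbers lower were 1 and 3 of the 4 members with a site, and 0 and 4 of the 6 without. BCL2, which has sites of both oligos, was higher in both pairs, by log2 differences of 0.54 and 0.44. Over all genes tested the median difference was 0.01 in replicate 1 and 0.00 in replicate 2. The share of all genes that were lower was not counted. A match of letters is a description only, and the part of these oligos in any difference was not tested.

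Baseline levels were compared between genes as CPM per kilobase of the listed gene length, in the 2 siNC libraries. MCL1 stood first at 79.4 ± 3.51 CPM per kilobase (SD, n = 2), which was 31.3% of the sum over the 10 members. BAD followed at 43.6 ± 1.24 and BAX at 38.2 ± 0.139 CPM per kilobase. The ranges of these 3 genes over the siNC libraries did not overlap.

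BCL2L1 (28.6 ± 8.34 CPM per kilobase, SD, n = 2), BAK1 (21.8 ± 2.02) and BID (21.8 ± 1.76) came next, and the range of BCL2L1 overlapped that of BAK1, as did that of BAK1 with BID. Below them lay PMAIP1 at 9.28 ± 1.22, BBC3 at 6.00 ± 2.84 and BCL2L11 at 4.84 ± 0.908 CPM per kilobase, and the last 2 overlapped. BCL2, the founding member of the family, was lowest at 0.368 ± 0.0226 CPM per kilobase, and the level of MCL1 was 216 times as high. Without siNC replicate 1 BID stood above BAK1, and without siNC replicate 2 BCL2L11 stood above BBC3, while 8 of 10 members kept their place in each case.

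**Figure D1:**
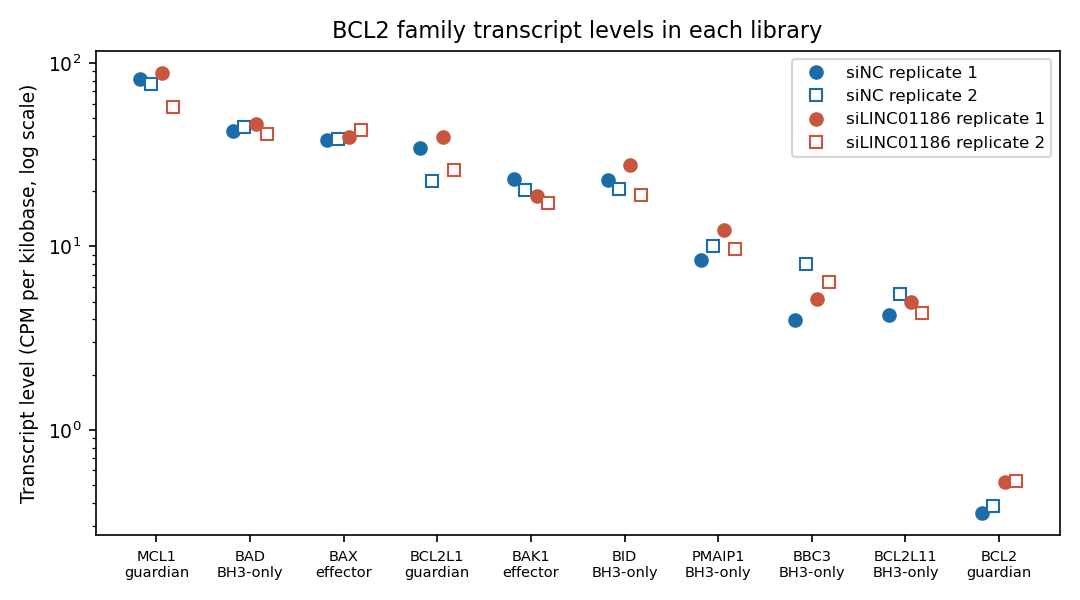
Level of each member in CPM per kilobase of gene length (log scale) in each of the 4 libraries, with circles for replicate 1 and squares for replicate 2, and the genes ordered by their mean in siNC. MCL1 lies at the top (57.2 to 88.3 CPM per kilobase) and BCL2 at the bottom (0.352 to 0.527 CPM per kilobase) in every library.

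Summed by class, the guardians held 117 and 100 CPM per kilobase in siNC replicates 1 and 2, the BH3-only genes 82.4 and 88.7, and the effectors 61.3 and 58.7. In the libraries labelled siLINC01186 the same sums were 128 and 83.7 for guardians, 96.8 and 80.3 for BH3-only genes, and 58.3 and 60.2 for effectors. The effector sum therefore varied least across the 4 libraries, and the guardian sum was highest in one siLINC01186 library and lowest in the other.

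The groups were compared in the 23942 genes whose counts over the 4 libraries came to 5 or more, by edgeR's quasi-likelihood test. A gene was called when its log2 fold change exceeded 1 in size at an unadjusted p under 0.05, which 181 genes (0.756% of those tested) met, 111 higher and 70 lower. All 10 members were tested and 0 of 10 were called. The edgeR fit had no term for the replicate number. An unadjusted p under 0.05 alone was met in it by 1.21% of genes tested and by 0 members. After adjustment 0 genes of any kind passed in this fit (1 gene with DESeq2, and 0 members at an unadjusted p under 0.05 with DESeq2). The number passing with the replicate number as a block differed and is given in the closing section. The adjusted p of every member was 1.00. The member log2 fold changes had a median of 0.05 and ran from -0.29 to 0.51, beside a median of 0.00 over all genes tested. In CPM, both siLINC01186 libraries lay beyond both siNC libraries for 3 of 10 members and for 26.0% of all genes tested. The 95% interval of the log2 fold change lay within 1 in either direction for 9 members, the exception being BCL2.

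Of the effectors, BAX (chr19:49458117-49465055, plus strand, hg19 as are all gene positions below) is cytosolic and moves to mitochondria when activated. Its counts were 832 and 806 in siNC replicates 1 and 2, and 738 and 997 in siLINC01186 replicates 1 and 2, which scaled to 49.7 and 49.9 CPM against 51.6 and 56.1 CPM. On the CPM scale both siLINC01186 libraries were above both siNC libraries, with the larger gap in replicate 2, whereas with deposited TPM replicate 1 differed the other way. The fitted log2 fold change was 0.11 (SE 0.18, 95% interval -0.29 to 0.52, unadjusted p = 0.543, edgeR).

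Within replicate numbers the siLINC01186 rate of BAX was 1.04 times that of siNC in replicate 1 (exact conditional 95% interval 0.940 to 1.15) and 1.12 times in replicate 2 (1.02 to 1.23). Such intervals, here and below, cover counting error only, since each pair has 1 library per group and allows no test.

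BAK1 (chr6:33540323-33548070, minus strand), the effector resident in the outer mitochondrial membrane, had 855 and 723 counts in siNC and 586 and 669 counts in siLINC01186. Its levels were 51.0 and 44.8 CPM in siNC replicates 1 and 2, and 41.0 and 37.6 CPM in siLINC01186 replicates 1 and 2. The groups did not overlap, and BAK1 was the only member lower in both siLINC01186 libraries than in both siNC libraries. In the fit over both replicates the log2 fold change came to -0.29 (SE 0.19, 95% interval -0.71 to 0.14, unadjusted p = 0.161, edgeR). The rate ratio was 0.803 in replicate 1 (0.722 to 0.894) and 0.841 in replicate 2 (0.756 to 0.935), so that the gap exceeded counting error in both.

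Among the guardians, BCL2 (chr18:60790579-60986613, minus strand) had the fewest counts of any member, 39 and 41 in siNC against 49 and 62 in siLINC01186. These scaled to 2.33 and 2.54 CPM in siNC and 3.43 and 3.49 CPM in siLINC01186. The groups did not overlap. Its log2 fold change, the largest in size of the 10 members, was 0.51 (SE 0.36, 95% interval -0.31 to 1.33, unadjusted p = 0.196, edgeR). With so few counts the rate ratios, 1.47 in replicate 1 (0.947 to 2.30) and 1.37 in replicate 2 (0.911 to 2.09), did not exceed counting error within either pair.

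BCL2L1 (chr20:30252255-30311802, minus strand), from which BCL-XL and a shorter pro-apoptotic isoform are spliced, had 1949 and 1237 counts in siNC and 1892 and 1556 counts in siLINC01186. The levels were 116 and 76.6 CPM in siNC replicates 1 and 2, and 132 and 87.6 CPM in siLINC01186 replicates 1 and 2. Both replicate 1 libraries were above both replicate 2 libraries, so the groups overlapped. The rate ratio was 1.14 in replicate 1 (1.07 to 1.21) and 1.14 in replicate 2 (1.06 to 1.23), and the log2 fold change came to 0.19 (SE 0.27, 95% interval -0.42 to 0.79, unadjusted p = 0.498, edgeR). Gene counts do not separate the isoforms. The antisense gene ABALON overlaps BCL2L1 by 1903 bases and had 408 to 689 counts, and as the library kit does not mark strand, reads from the shared bases cannot be told apart.

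MCL1 (chr1:150547027-150552214, minus strand), a guardian known for the short life of its protein, had 5602 and 5072 counts in siNC and 5154 and 4154 counts in siLINC01186. Its levels were 334 and 314 CPM in siNC replicates 1 and 2, and 361 and 234 CPM in siLINC01186 replicates 1 and 2. One siLINC01186 library was thus the highest of the 4 and the other the lowest. The rate ratio was 1.08 in replicate 1 (1.04 to 1.12) and 0.744 in replicate 2 (0.714 to 0.775), each beyond counting error and in opposite directions. Over both replicates the log2 fold change came to -0.13 (SE 0.23, 95% interval -0.65 to 0.40, unadjusted p = 0.599, edgeR).

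Each of the 5 BH3-only genes was higher in siLINC01186 replicate 1 and lower in siLINC01186 replicate 2 than in the same-numbered siNC library, except that with deposited TPM BCL2L11 and BAD were lower in both. BCL2L11 (chr2:111878491-111926022, plus strand), whose product BIM binds all guardians and activates the effectors, had 437 and 550 counts in siNC and 439 and 476 in siLINC01186. These scaled to 26.1 and 34.1 CPM in siNC and 30.7 and 26.8 CPM in siLINC01186, and both siLINC01186 values lay between those of siNC. The rate ratio was 1.18 in replicate 1 (1.03 to 1.35) and 0.786 in replicate 2 (0.694 to 0.890). The fitted log2 fold change was -0.07 (SE 0.21, 95% interval -0.55 to 0.42, unadjusted p = 0.767, edgeR).

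BID (chr22:18216906-18257431, minus strand), which links death receptors to mitochondria once caspase-8 cuts its product, had 1028 and 884 counts in siNC and 1061 and 901 counts in siLINC01186. The levels were 61.4 and 54.8 CPM in siNC and 74.3 and 50.7 CPM in siLINC01186, so the siLINC01186 libraries lay on either side of siNC. Its rate ratio was 1.21 in replicate 1 (1.11 to 1.32) and 0.926 in replicate 2 (0.843 to 1.02). In the fit over both replicates the log2 fold change came to 0.10 (SE 0.22, 95% interval -0.40 to 0.61, unadjusted p = 0.650, edgeR).

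BAD (chr11:64037300-64052176, minus strand), whose protein is held inactive by 14-3-3 proteins when growth factor signals phosphorylate it, had 876 and 879 counts in siNC and 812 and 889 in siLINC01186. It scaled to 52.3 and 54.4 CPM in siNC and 56.8 and 50.0 CPM in siLINC01186. BAD differed least between the groups, with a log2 fold change of 0.00 (SE 0.18, 95% interval -0.41 to 0.42, unadjusted p = 0.995, edgeR). Within pairs the ratio was 1.09 (0.986 to 1.20) and 0.919 (0.836 to 1.01), within counting error in both. GPR137 overlaps it by 366 bases on the other strand and had 956 to 1240 counts, so reads from those bases cannot be told apart either.

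BBC3 (chr19:47724079-47736023, minus strand), a p53 target encoding PUMA, had 140 and 271 counts in siNC and 154 and 238 counts in siLINC01186. Its levels were 8.36 and 16.8 CPM in siNC and 10.8 and 13.4 CPM in siLINC01186, and both replicate 2 libraries were above both replicate 1 libraries. The rate ratio was 1.29 in replicate 1 (1.02 to 1.63) and 0.798 in replicate 2 (0.667 to 0.953). The fitted log2 fold change was -0.05 (SE 0.34, 95% interval -0.82 to 0.71, unadjusted p = 0.876, edgeR).

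PMAIP1 (chr18:57567192-57571538, plus strand) encodes NOXA, which binds MCL1. It had 273 and 317 counts in siNC and 341 and 331 counts in siLINC01186, scaling to 16.3 and 19.6 CPM against 23.9 and 18.6 CPM. One library, siLINC01186 replicate 1, stood above the other three, which lay close together. The rate ratio was 1.46 in replicate 1 (1.25 to 1.72) and 0.949 in replicate 2 (0.811 to 1.11). In the fit over both replicates the log2 fold change came to 0.24 (SE 0.23, 95% interval -0.28 to 0.76, unadjusted p = 0.323, edgeR).

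**Figure D2:**
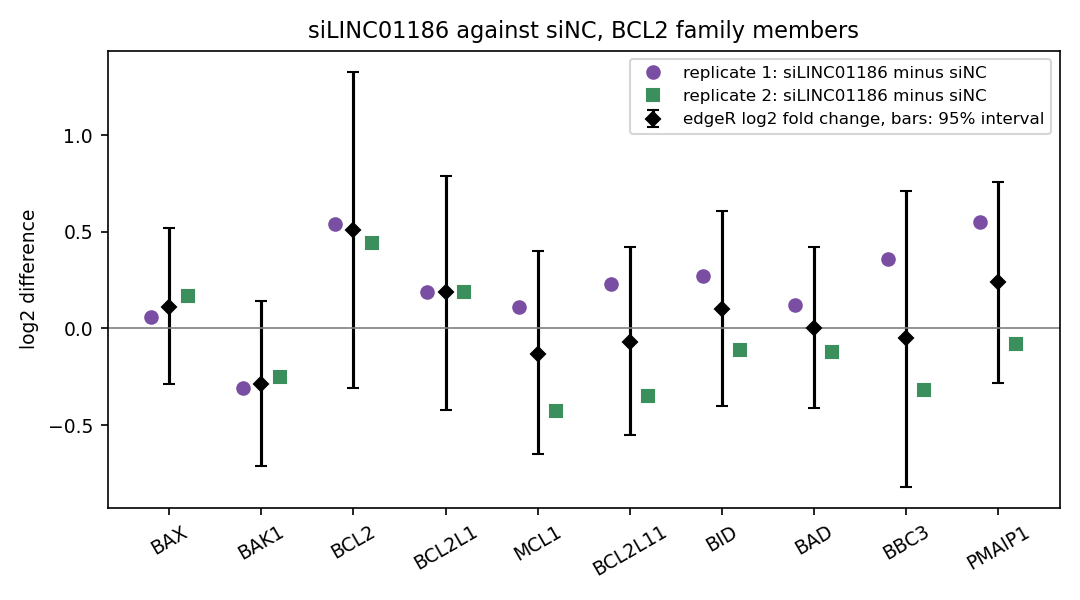
Log2 difference of siLINC01186 from siNC for each member, within replicate 1 (circles) and replicate 2 (squares) from TMM-scaled CPM, and the edgeR log2 fold change over the 4 libraries with its 95% interval (diamonds and bars). All 10 intervals cross 0, and 6 of the 10 members have pair differences of opposite sign, as do 10976 of all 23942 genes tested. With deposited TPM the replicate 1 differences of BAX, BCL2L1, MCL1, BCL2L11 and BAD fall below 0.

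Across the members the median log2 difference was 0.21 within replicate 1 and -0.12 within replicate 2, beside 0.01 and 0.00 over all genes tested. The direction depended on scaling in replicate 1. The deposited TPM values moved the members' differences by a median of -0.25 in replicate 1 and -0.09 in replicate 2, and turned the sign of 5 of 20 differences, those of BAX, BCL2L1, MCL1, BCL2L11 and BAD in replicate 1. Beside this, MIR6087, a single short gene, took 1.16% and 1.91% of all TPM in siNC replicates 1 and 2, and 13.8% and 8.69% in siLINC01186 replicates 1 and 2, which leaves less of a fixed TPM total to other genes. Under plain library totals all 20 signs were kept.

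Ratios between members, which do not depend on the scaling of a library, were taken from levels per kilobase. BAX to BCL2, a pair often read as a measure of readiness for apoptosis, stood at 108 and 99.7 in siNC replicates 1 and 2, and at 76.4 and 81.6 in siLINC01186 replicates 1 and 2. Both siLINC01186 ratios were below both siNC ratios, a log2 difference of -0.40 (two-sided exact permutation p = 0.333, the smallest that 2 against 2 libraries allow). BCL2's 39 to 62 counts limit this ratio. BAX to BAK1 was 1.64 and 1.87 in siNC and 2.12 and 2.50 in siLINC01186, a log2 difference of 0.40 with the groups apart (exact permutation p = 0.333). As BAX was higher and BAK1 lower in both siLINC01186 libraries than in both siNC libraries, this ratio had to separate the groups. It was added to the ratios planned, as were MCL1 to BCL2L1 and BH3-only genes to guardians, given next.

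The ratio of summed guardians to summed effectors was 1.90 and 1.70 in siNC replicates 1 and 2, and 2.20 and 1.39 in siLINC01186 replicates 1 and 2. The siLINC01186 libraries thus held the highest and the lowest value, with a log2 difference of -0.04 (exact permutation p = 1.00). MCL1 to BCL2L1 was 2.37 and 3.38 in siNC and 2.25 and 2.20 in siLINC01186, a log2 difference of -0.35 (exact permutation p = 0.333). BH3-only genes to guardians gave 0.706 and 0.887 in siNC and 0.755 and 0.958 in siLINC01186, with a log2 difference of 0.10 (exact permutation p = 0.667).

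Replicate 2 was then compared with replicate 1 with the group in the edgeR model, a comparison added after the data had been seen. At an adjusted p under 0.05 in edgeR, 17.5% of genes tested differed, and 4 of 10 members did, BCL2L1, MCL1 and BID being lower in replicate 2 and BBC3 higher. BCL2L1 fell by 0.60 on the log2 scale (SE 0.12, adjusted p = 9.14e-06, edgeR), and the difference was -0.60 within siNC and -0.60 within siLINC01186. BBC3 rose by 0.66 (SE 0.17, adjusted p = 0.00179, edgeR), 1.00 within siNC and 0.31 within siLINC01186.

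MCL1 fell by 0.36 (SE 0.10, adjusted p = 0.00418, edgeR), but its difference was -0.09 within siNC and -0.63 within siLINC01186. For BID the fall was 0.36 (SE 0.13, adjusted p = 0.0303, edgeR), made of -0.16 within siNC and -0.55 within siLINC01186. Only BCL2L1 of these 4 differed by the same amount in both groups, and the difference between the groups was not tested. As the study describes different oligos in the 2 siLINC01186 replicates, oligo and replicate number cannot be told apart in that group. The summed counts of the 7 hepatocyte genes moved with the replicate number too, 82 and 88 in replicate 1 against 247 and 258 in replicate 2. Their part in these differences was not tested.

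**Figure D3:**
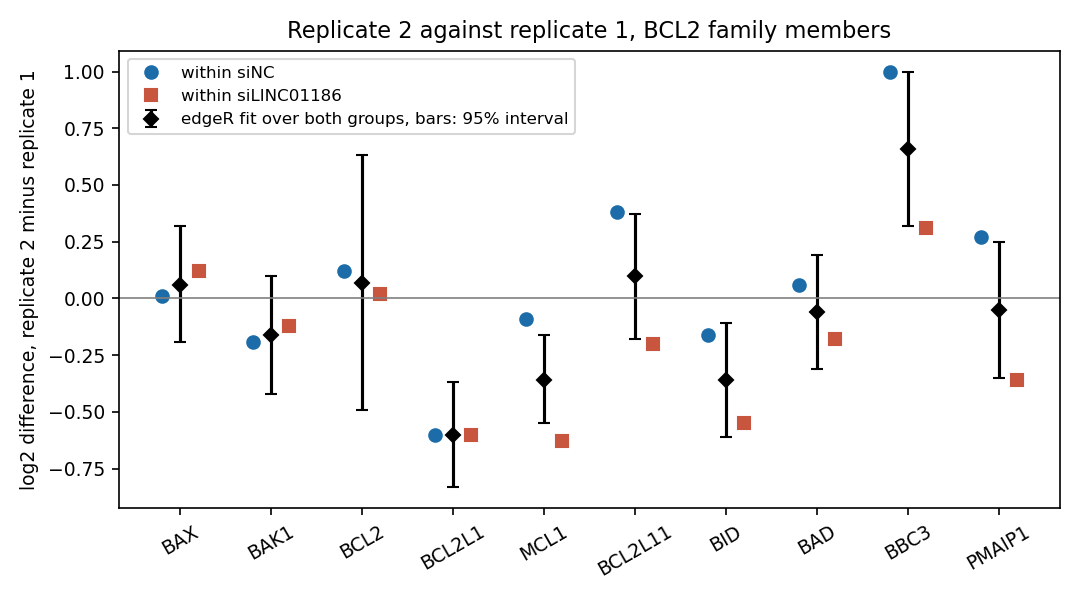
Log2 difference of replicate 2 from replicate 1 for each member, within siNC (circles), within siLINC01186 (squares) and from the edgeR fit with group in the model (diamonds, with 95% intervals). The interval lies below 0 for BCL2L1, MCL1 and BID and above 0 for BBC3, and the siNC and siLINC01186 points coincide for BCL2L1 at -0.60.

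Of 13 further BCL2 family genes, BCL2A1 and BCL2L10 had too few counts to test. Of all genes tested 0.756% were called and 1.21% had an unadjusted p under 0.05, against 0 and 0 of the 11 tested here. Their log2 fold changes had a median of 0.07 and ran from -0.55 for BMF to 1.09 for HRK. HRK, a BH3-only gene, had 4 and 6 counts in siNC and 10 and 11 in siLINC01186 (unadjusted p = 0.151, edgeR). The most abundant per length in siNC were BNIP3, which acts in mitophagy, and BCL2L12. BNIP3 had 43.3 and 90.2 CPM in siNC replicates 1 and 2, and 81.1 and 74.4 CPM in siLINC01186 replicates 1 and 2, so that siNC replicate 1 stood apart (log2 fold change 0.22, SE 0.31). BCL2L12 had 46.3 and 44.9 CPM in siNC and 42.3 and 41.2 CPM in siLINC01186 (log2 fold change -0.13, SE 0.18). Between replicate numbers 5 of the 11 rose at an adjusted p under 0.05 (edgeR), as did 1905 of all 23942 genes tested. The largest rise among the 11 was that of BMF, by 3.18 on the log2 scale (SE 0.32), from 7 and 15 counts in replicate 1 to 136 and 87 in replicate 2.

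Downstream of the family, 9 genes were tested. They encode mitochondrial channels, factors released through the pores, among them CYCS (cytochrome c) and DIABLO, and APAF1, which is neither. Of these 0 were called and 0 had an unadjusted p under 0.05, beside 0.756% and 1.21% of all genes tested. The 9 genes had a median log2 fold change of 0.02 and a range of -0.18 to 0.19. The channel genes VDAC1 and VDAC2 were the most abundant per length. VDAC1 had 370 and 346 CPM in siNC replicates 1 and 2 and 357 and 274 CPM in siLINC01186 replicates 1 and 2, lowest in siLINC01186 replicate 2 as MCL1 was. VDAC2 had 231 and 231 CPM in siNC and 254 and 212 CPM in siLINC01186.

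Of 11 genes that control the members or the turnover of their proteins, 0 were called, and 2 were higher in siLINC01186 at an unadjusted p under 0.05. Of all 23942 genes tested, 0.756% were called and 157 were higher at that p (edgeR). DDIT3, which encodes the endoplasmic reticulum stress factor CHOP, a known activator of several BH3-only genes, had 133 and 138 counts in siNC and 196 and 253 in siLINC01186. Its levels were 7.94 and 8.55 CPM in siNC against 13.7 and 14.2 CPM in siLINC01186, with both siLINC01186 libraries well above siNC. The fitted log2 fold change was 0.76 (SE 0.24, unadjusted p = 0.0121 and adjusted p = 1.00 in edgeR). The pair differences were 0.78 in replicate 1 and 0.73 in replicate 2.

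TRIB3, a pseudokinase gene known as a target of CHOP, had 67.1 and 57.6 CPM in siNC and 85.9 and 81.6 CPM in siLINC01186, again without overlap. Its fitted log2 fold change was 0.43 (SE 0.18, unadjusted p = 0.0467 and adjusted p = 1.00 in edgeR), and the pair differences were 0.36 and 0.50. TRIB3 missed an unadjusted p of 0.05 with DESeq2 (unadjusted p = 0.0790) and in each of the 4 edgeR fits that left out 1 library. DDIT3 missed it in the edgeR fit without siNC replicate 1 (unadjusted p = 0.0779) and in that without siLINC01186 replicate 2 (unadjusted p = 0.0549).

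The 14-3-3 genes YWHAQ and YWHAZ, whose proteins bind phosphorylated BAD, were the most abundant of the 11 per length. YWHAQ had 407 and 407 CPM in siNC and 389 and 298 CPM in siLINC01186, with a log2 fold change of -0.25 (SE 0.20). YWHAZ had 541 and 449 CPM in siNC and 532 and 443 CPM in siLINC01186, following the replicate number rather than the group.

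**Figure D4:**
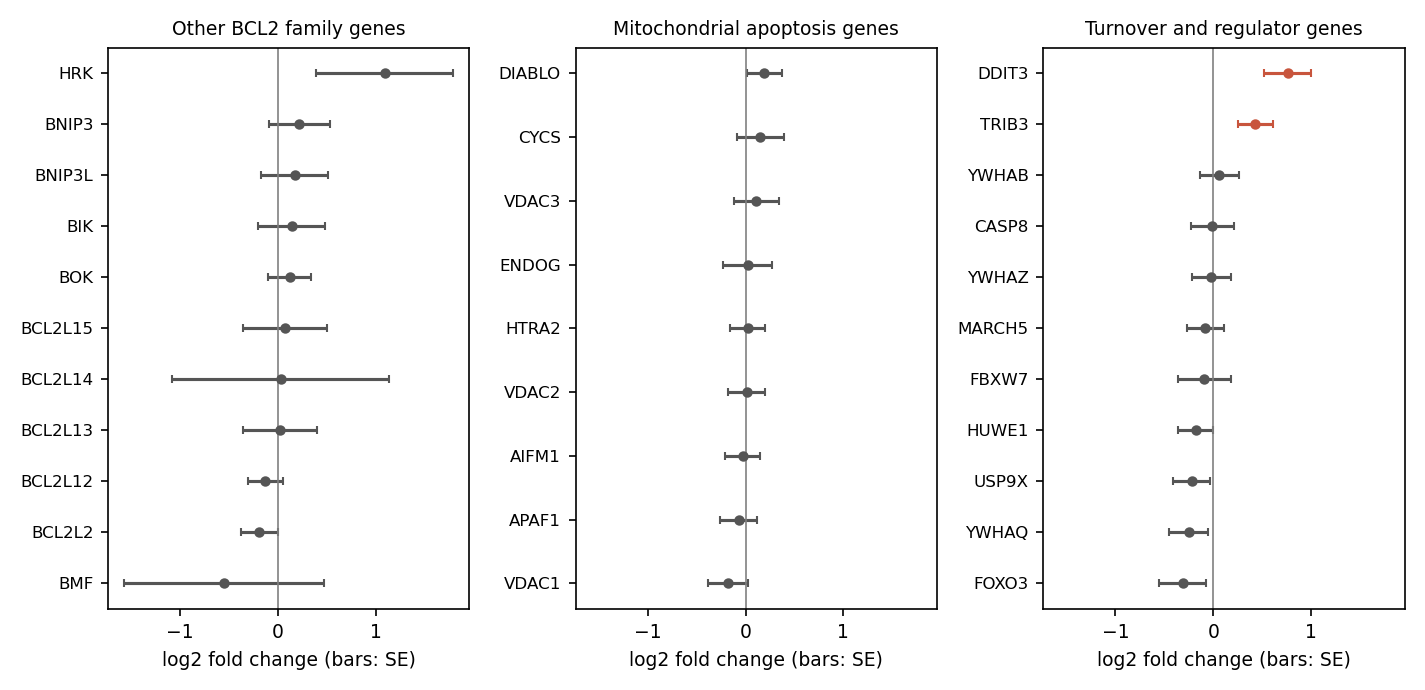
Log2 fold change of siLINC01186 against siNC (edgeR, bars: standard error) for the tested genes of the 3 further lists, with an unadjusted p under 0.05 in red and all others in grey. DDIT3 (0.76) and TRIB3 (0.43) are the 2 red points, and the bars are widest for BCL2L14, BMF (-0.55) and HRK (1.09).

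Promoter windows of 300 bases around the start site, most of them upstream, were read for 9 members, MCL1 being the exception (RefSeq, GRCh38.p14). On either strand, the core of a STAT site, TTCNNNGAA, lay in 0 of 9 members and in 7.95% of 27305 promoters. The GC box GGGCGG lay in 7 of 9 members and in 43.4% of promoters, absent from BCL2 and BBC3. CCAAT lay in 5 of 9 (BAX, BAK1, BCL2L11, BAD and BBC3) and in 35.4% of promoters. TGATGNAA, the core of the element to which CHOP and its partners bind, lay in 0 of 9 members and 3.83% of promoters, and TATAAA in 0 of 9 and 12.3%. These are counts of letters in one window per gene.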

How the data were processed

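RNA-seq was analysed for 2 siNC and 2 siLINC01186 libraries, grouped by the labels. The authors deposited unnormalized counts and TPM values per gene. The deposited TPM equals the count per gene length scaled to a fixed library sum. The submitters' processing notes name hg19, HISAT2, HISAT, TopHat2 and Bowtie2, and the counting program is not given in the sources used here.

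In R 4.3.3, genes whose counts over all libraries came to 5 or more were scaled by TMM and tested with edgeR 4.0.16's quasi-likelihood test without a block, with Benjamini-Hochberg adjustment over 23942 genes. Standard errors came from the fold change and F statistic, and pair differences from log2 CPM with a prior count of 2. With 3 counts as the floor, the lowest level was 0.169 to 0.210 CPM. Alternatives were DESeq2 1.42.0, other size factors and filters, a replicate block, robust estimation, the protein-coding subset and dropping 1 library at a time. Procedures were tested on simulated data. Named genes were the members and, from the further lists, those with an unadjusted p under 0.05 and the 2 most abundant per length, while HRK, BMF, BCL2A1, BCL2L10, BCL2L14, CYCS, APAF1, DIABLO, ABALON, GPR137 and MIR6087 were named after their values were seen. Members and lists were chosen with earlier results of these data known.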

Additional observations from a re-analysis of the deposited data

How the results depend on the processing

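Under 12 alternatives for each of 9 members, 99 of 108 log2 fold changes kept their direction and side of an unadjusted p of 0.05, and 8, all from leaving out a library, changed sign. BAD, at 0.00, has no direction to keep and ran from -0.09 to 0.08. BCL2L1 was -0.14 without siLINC01186 replicate 1 and -0.08 without siNC replicate 2, BID -0.20 without siLINC01186 replicate 1, and BBC3 0.09 without siLINC01186 replicate 1 and 0.54 without siNC replicate 2. BCL2L11 was 0.14 without siNC replicate 2 and 0.03 without siLINC01186 replicate 2, and MCL1 0.15 without the latter. Over all leave-one-out fits BCL2L1 ran from -0.14 to 0.52, BID from -0.20 to 0.35, BBC3 from -0.47 to 0.54, BCL2L11 from -0.25 to 0.14 and MCL1 from -0.47 to 0.15. In those fits the lone library of a group is assumed to vary like the others. Counts over all genes moved more. Against 111 higher and 70 lower genes, DESeq2 called 15 and 12, edgeR's expression filter 32 and 14, and protein-coding genes only 33 and 13, and leaving out a library gave 81 (without siLINC01186 replicate 2) to 282 (without siNC replicate 2) higher and 93 (without siNC replicate 2) to 201 (without siLINC01186 replicate 2) lower. Against 0 genes at an adjusted p under 0.05, DESeq2 gave 1, a minimum of 1 count 5, and leaving out a library 0 to 6 (6 without siNC replicate 2). In the further lists, 2 genes had an unadjusted p under 0.05, against 1 with DESeq2, 1 with a minimum of 1 count and 1 to 4 when a library was left out, and 0 to 1 genes were called, 1 without either siNC library. The cause of these moves was not tested. With the replicate number as a block, 278 genes had an adjusted p under 0.05 (edgeR), among them DDIT3 (log2 fold change 0.76, adjusted p = 0.00406) and TRIB3 (0.43, adjusted p = 0.0435) of the further lists and 0 members. An unadjusted p under 0.05 was then met by 8 genes of the further lists and by 1 member, BAK1 (log2 fold change -0.28, unadjusted p = 0.0330 and adjusted p = 0.520, edgeR). Same-numbered libraries deviated together (correlation 0.563 over 16848 genes), but the labels share only a number, and 2 pairs are too few to show a pairing. The depth, with BCL2 at 39 to 62 counts, limits that gene most.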
